A study of Mus musculus with 4 samples.

Results

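The Sox, Twist and Snail transcription factors followed here are the genes Sox2, Sox4, Sox9, Sox11, Twist1, Snai1 and Snai2, a set of neural progenitor and mesenchymal regulators chosen by gene symbol. Of these 7 genes, 5 are named by the platform annotation, with 7 probe sets, out of 8236 genes with 10814 probe sets of 1 symbol. Sox4 and Sox11 have 2 probe sets each and Twist1, Snai1 and Snai2 have 1 each, whereas no listed probe set carries the symbol Sox2 or Sox9, so these were not analysed here. The set was put together with earlier results of these arrays in view, including the differences of Snai2 and Twist1 between Nurr1-labelled and control clones, so the values of its members are a description and carry no test.

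RNA came from 4 lines derived from c17.2, immortal neural stem cells of mouse cerebellar origin, all kept under proliferating conditions. Stable transfection had given clones 42 and 48 the nuclear receptor Nurr1 (gene Nr4a2), whereas the control clones puroB and puroD carried only the puromycin vector without insert. Each line is a single clone measured on 1 array, so an effect of a clone and an effect of Nurr1 cannot be told apart within a pair, and no spread within a clone is known. By proliferation rate, clone 42 was matched to puroB (the first pair) and clone 48 to puroD. The sources used here do not name the promoter that drives the transfected Nurr1.

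Sox proteins bind DNA through an HMG box. Sox2 maintains neural stem cells, Sox9 acts in glial and cartilage precursors, and Sox4 and Sox11 act together in newly committed neurons and in survival of progenitors. Snai1 and Snai2 are zinc finger repressors and Twist1 is a basic helix-loop-helix factor. They bind E-box sequences, repress epithelial genes such as that of E-cadherin, and drive the passage of epithelial cells, including the neural crest, to a migratory mesenchymal state.

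The 4 measured members with an entry in the RefSeq promoter table (GRCm38.p6) are shown by the 250 bases before their annotated start. Sox11, Twist1 and Snai1 shared their lowest array, that of clone 42, but Snai1 was higher in clone 48 than in puroD. Sox4 was not lowest in clone 42 at either probe set. The windows lie at chr12:27342719-27342968 on the minus strand for Sox11, chr12:33957421-33957670 on the plus strand for Twist1, chr13:28953700-28953949 on the minus strand for Sox4 and chr2:167537945-167538194 on the plus strand for Snai1. Capitals mark every match, on either strand, to AAAGGTCA (the site that Nurr1 binds as a monomer), CAGGTG (an E-box of Snail factors), ACAAAG and ACAATG (Sox sites), CCAAT and TATAAA.
Sox11: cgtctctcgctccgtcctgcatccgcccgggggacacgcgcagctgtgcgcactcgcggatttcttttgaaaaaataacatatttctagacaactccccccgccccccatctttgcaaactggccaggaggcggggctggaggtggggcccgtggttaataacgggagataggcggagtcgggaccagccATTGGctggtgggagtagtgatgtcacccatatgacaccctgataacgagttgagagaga
Twist1: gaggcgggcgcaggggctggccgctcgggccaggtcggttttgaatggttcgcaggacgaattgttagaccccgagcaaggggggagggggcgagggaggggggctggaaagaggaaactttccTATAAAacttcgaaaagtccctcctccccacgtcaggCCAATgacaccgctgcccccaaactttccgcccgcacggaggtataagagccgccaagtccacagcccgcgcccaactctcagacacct
Sox4: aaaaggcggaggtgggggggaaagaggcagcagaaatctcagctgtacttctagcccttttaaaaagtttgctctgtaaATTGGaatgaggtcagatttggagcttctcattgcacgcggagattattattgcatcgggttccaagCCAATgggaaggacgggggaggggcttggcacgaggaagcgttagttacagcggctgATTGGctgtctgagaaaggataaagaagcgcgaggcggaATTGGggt
Snai1: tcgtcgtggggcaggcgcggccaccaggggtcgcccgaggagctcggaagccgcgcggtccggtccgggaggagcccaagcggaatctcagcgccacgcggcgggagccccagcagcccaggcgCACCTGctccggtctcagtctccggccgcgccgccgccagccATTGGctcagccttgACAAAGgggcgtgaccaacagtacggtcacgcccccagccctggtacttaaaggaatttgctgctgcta
None of the 4 windows holds AAAGGTCA, which 1.35% of 32536 different mouse promoter windows of this length hold on either strand. The Snai1 window holds the E-box as CACCTG, 126 to 121 bases before the start, and ACAAAG, 69 to 64 bases before it; these are found in 17.3% and 16.5% of all windows. ACAATG, in 10.5% of all windows, is in none of the 4. CCAAT, read in either direction, occurs in each of the 4 windows, 4 times in that of Sox4, and in 33.8% of all windows. TATAAA is present in the Twist1 window, 126 to 121 bases before the start, and in 12.3% of all windows. A match describes the letters only and shows no binding.

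The arrays were first checked against their labels. Nr4a2, the transfected gene, gave 320.1 for clone 42 and 206.4 for clone 48, against 485.0 for puroB and 254.2 for puroD (92248_at), and was lower in the Nurr1-labelled array of each pair at its other probe set too (92249_g_at). Where the probes lie relative to the transfected sequence is not stated in these sources; the probe sets need not detect that copy, and the transfected lines are called Nurr1-labelled. Background was read from 15 control probe sets for transcripts not spiked in, whose highest signal on each array (here the control level) was 62.7 for clone 42 and 39.1 for clone 48, against 49.8 for puroB and 59.1 for puroD. The actin control, whose 3' to 5' ratio reflects how intact the RNA was, gave ratios of 1.68 and 2.41 in clones 42 and 48, against 1.51 and 2.0 in puroB and puroD. Of 8 measured neural stem and progenitor markers, 4 exceeded this background on all 4 arrays, among them Nes, the progenitor filament nestin (3173.8 and 3719.8 in clones 42 and 48, against 3325.2 and 3029.8 in puroB and puroD), and Fabp7, a fatty acid binding protein of radial glia (564.5 and 157.3 in clones 42 and 48, against 1292.5 and 1539.0 in puroB and puroD), whereas Hes5 was under it on every array and Pax6 on all but puroB. The summed signal of the 8 was 4533.4 and 4506.6 in clones 42 and 48, against 5480.2 and 5517.0 in puroB and puroD. Fabp7 carried most of this difference, whereas the groups overlapped for Nes, the brightest of them. Hes1 was also lower in both Nurr1-labelled clones (468.0 and 402.5 in clones 42 and 48, against 596.6 and 606.7 in puroB and puroD). All 5 measured neural crest markers, among them Sox10 and Tfap2a, exceeded background on all 4 arrays. Of 7 microglia and macrophage markers, 4 exceeded it on all 4 arrays and 3 were under it on every array. Of 5 endothelial markers, 2 exceeded it on all 4 arrays and 2 were under it on every array. With markers of a type split in this way, a signal above this background does not by itself show that a cell type is present.

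Sox11 was the member with the widest range of signals, and clone 42 stood apart. At probe set 101631_at its signal was 74.7 for clone 42 and 905.0 for clone 48, against 1331.0 for puroB and 1302.8 for puroD. The control clones were within 1.02-fold of each other, clone 48 lay below both, and clone 42 lay just above the control level of its array, so the groups did not overlap. Sox11 was 17.8-fold lower in clone 42 than in puroB and 1.44-fold lower in clone 48 than in puroD (log2 ratios -4.16 and -0.53). The ratio of the first pair was the lowest of all 6419 tested probe sets, and that of the other pair stood at place 914 from the lowest. In bulk RNA, fewer cells with a transcript and less of it per cell cannot be told apart. Averaged over the pairs, the log2 difference was -2.34 ± 2.57 (SD, n = 2 pairs); without clone 42 it was -0.54 and without clone 48 it was -4.14. Between the Nurr1-labelled clones, Sox11 was 12.1-fold lower in clone 42 than in clone 48.

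The other Sox11 probe set, 93669_f_at, was dim and did not pass the filter on signal; its suffix marks probes that can also match related sequences. It gave 20.1 for clone 42 and 87.7 for clone 48, against 135.2 for puroB and 139.7 for puroD, the same order of clones as at 101631_at apart from the near-equal controls. The signal in clone 42 lay under the control level, and with that array raised to the control level the log2 ratio to puroB was -1.11. The log2 ratio of clone 48 to puroD was -0.67. Both probe sets of Sox11 thus had their lowest signal in clone 42 and lower signals in both Nurr1-labelled clones than in either control.

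Twist1 had its lowest signal in the same array. Probe set 98028_at gave 53.9 for clone 42 and 133.5 for clone 48, against 189.8 for puroB and 202.2 for puroD. The groups did not overlap, the controls lay close together, and clone 42 was under the control level of its array, so the size of the difference there is not known. With that array raised to the control level the log2 ratio of clone 42 to puroB was -1.60, and it was -1.82 as measured; that of clone 48 to puroD was -0.60. The mean over the pairs was -1.21 ± 0.86 (SD, n = 2 pairs), -1.10 with signals raised to the control level, and -0.55 without clone 42.

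Snai2, also known as Slug, was higher in both Nurr1-labelled clones. Probe set 99552_at gave 3234.5 for clone 42 and 2126.6 for clone 48, against 1526.5 for puroB and 1151.7 for puroD. Both Nurr1-labelled arrays were above both control arrays, and within each group the array of the first pair was the higher. Snai2 was 2.12-fold higher in clone 42 than in puroB and 1.85-fold higher in clone 48 than in puroD, a mean log2 difference of 0.98 ± 0.14 (SD, n = 2 pairs). This placed it at 61 from the highest of the tested probe sets. The control clones differed by 1.33-fold, in puroB over puroD, a log2 ratio of 0.41. The summed signal of 8 fibroblast markers was also higher in the Nurr1-labelled clones, at 14449.4 and 10614.2 in clones 42 and 48, against 5069.9 and 7290.1 in puroB and puroD. Postn and Col3a1 made up most of this sum. Of these markers 4 exceeded background on all arrays, and Lum, Dcn and Thy1 exceeded it on 1 array each. Col1a1, a collagen I chain, lay the other way in the pair of clone 48 at its brightest probe set (207.7, against 559.3 in puroD). Another Col1a1 probe set, which was untested, gave log2 ratios of 0.99 in the first pair and 0.51 in that of clone 48. Lum was lower in both Nurr1-labelled clones (30.4 and 36.4 in clones 42 and 48, against 77.8 and 48.8 in puroB and puroD). The part of such cells or states in the Snai2 values was not tested.

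Snai1, for which the family is named, was dim on every array and did not pass the filter on signal. Its probe set 103830_at gave 46.8 for clone 42 and 132.4 for clone 48, against 86.3 for puroB and 94.1 for puroD. The Nurr1-labelled clones lay on either side of the controls, with clone 42 under the control level of its array. Its log2 ratio was -0.88 in the first pair, or -0.46 with clone 42 raised to the control level, and 0.49 in the other. The mean of -0.20 ± 0.97 (SD, n = 2 pairs) was smaller than the spread between the pairs. It became 0.016 with signals raised to the control level, 0.55 without clone 42 and -0.95 without clone 48, so no direction can be given.

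Sox4, the relative of Sox11, was well above background on all arrays, and its probe sets gave opposite directions. At 101430_at the signal was 1479.7 for clone 42 and 853.4 for clone 48, against 1783.6 for puroB and 1096.8 for puroD, with log2 ratios of -0.27 and -0.36 in the pairs. At 160109_at it was 1146.1 for clone 42 and 769.6 for clone 48, against 844.6 for puroB and 655.8 for puroD, with log2 ratios of 0.44 and 0.23. The groups overlapped at both probe sets. What they shared was the difference between the pairs: puroB exceeded puroD by 0.70 and 0.37 on the log2 scale, and clone 42 exceeded clone 48 by 0.79 and 0.57. At 101430_at the mean log2 difference of -0.32 became 0.081 without clone 48 and 0.035 without puroB. No direction of Sox4 between Nurr1-labelled and control clones can be given.

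**Figure D1:**
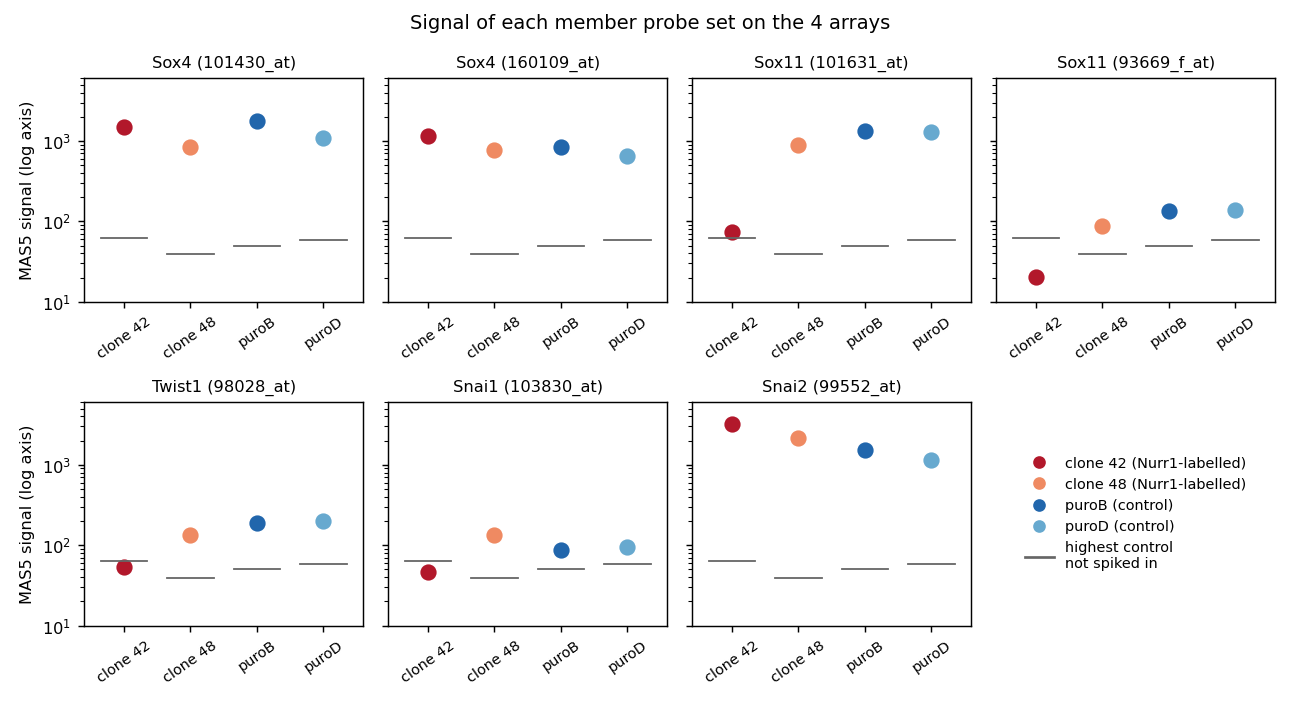
MAS5 signal on a log axis (no unit) of each member probe set, 1 point per array, in clone 42 and clone 48 (Nurr1-labelled) and puroB and puroD (control); the grey bar is the highest control for transcripts not spiked in on that array. Sox11, Twist1 and Snai1 are lowest in clone 42, where Sox11 93669_f_at, Twist1 and Snai1 lie under the bar, while Snai2 is highest there.

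Across the 7 member probe sets, the groups did not overlap for 3 that were lower in both Nurr1-labelled clones (both of Sox11 and that of Twist1) and for 1 that was higher (Snai2), and overlapped for the other 3. Among all tested probe sets, 17.9% lay wholly lower in the Nurr1-labelled clones and 12.8% wholly higher. Of the member probe sets 5 passed the filter on signal. Among these 5, in the first pair, ratios of 2-fold or more were seen for Sox11 (101631_at) and Twist1 as lower, beside 4.78% of tested probe sets, and for Snai2 as higher, beside 3.57%. In the pair of clone 48 none of them reached 2-fold in either direction, beside 5.39% of those tested, and between the controls none did, beside 6.06%. Clone 42 was lower than clone 48 by 2-fold or more at Sox11 (101631_at) and Twist1, where 4.58% of tested probe sets were. With clone 42 raised to its control level, clone 48 over clone 42 was 2.13-fold for Twist1, and for the untested probe sets 2.11-fold for Snai1 and 1.40-fold for Sox11 93669_f_at. These values were among those in view when the set was chosen, so nothing is read from the counts.

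**Figure D2:**
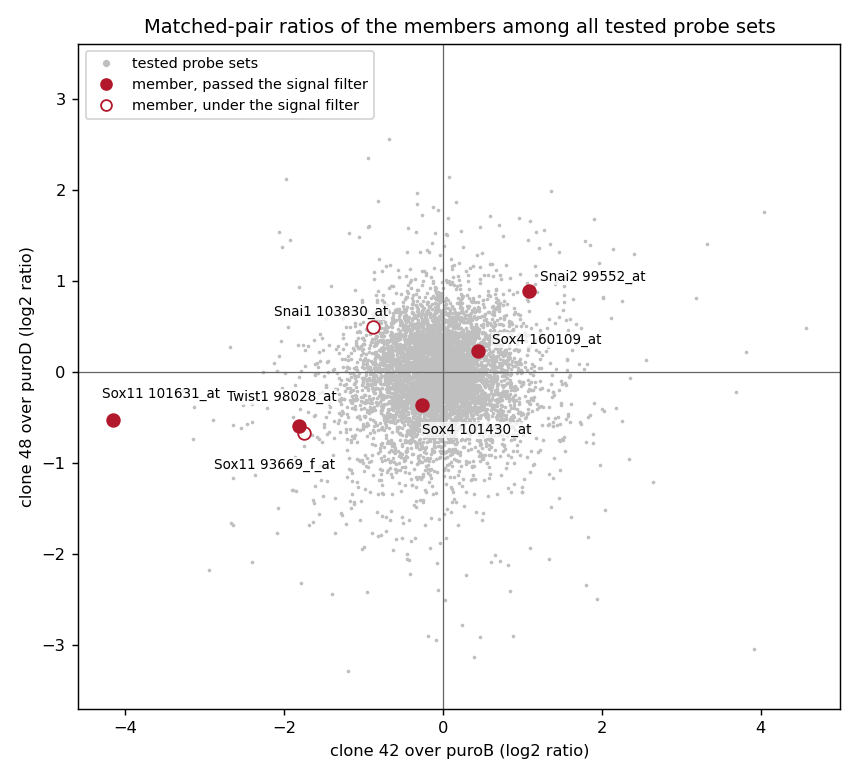
Log2 ratio of clone 42 over puroB (horizontal) and of clone 48 over puroD (vertical) for the 6419 tested probe sets (grey) and the member probe sets (red; open where under the filter on signal). Sox11 101631_at lies farthest left at -4.16, Snai2 is positive in both pairs, and Snai1 is negative in the first pair and positive in the other.

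The genes whose pattern over the 4 arrays lay nearest to each tested member were found by the distance between log2 signals after subtracting each gene's mean, among the 5820 tested probe sets with 1 symbol. For Snai2 these were Fgf5, a fibroblast growth factor (distance 0.08), Htra1, a secreted serine protease (0.11), and Tgfbi, a matrix protein induced by TGF-beta (0.15), against a median distance of 1.24. For example, Fgf5 gave 1018.8 for clone 42 and 682.8 for clone 48, against 489.7 for puroB and 391.2 for puroD. Twist1 was nearest to Cmtm6 (0.10), the nuclear export factor Cse1l (0.15) and the deubiquitinase Usp2 (0.16), with a median of 1.59. Cse1l gave 294.5 for clone 42 and 753.8 for clone 48, against 1017.1 for puroB and 1242.0 for puroD. Cmtm6 was under the control level in clone 42 (16.8) and was raised to the floor there, so its distance depends on the floor. Sox11 had no near neighbour of this kind. Its closest were the proliferation factor Mybl2 (0.89), the spindle kinesin Kifc1 (1.37) and the actin-associated Pdlim4 (1.55), with a median of 3.49. Mybl2 (40.1) and Kifc1 (54.7) were under the control level in clone 42, so the width of their gaps is not known. For Sox4 (101430_at) the nearest were Igkv8-30 (0.07), Il9 (0.08) and the catalase gene Cat (0.11), with a median of 0.93. Over 4 arrays many probe sets are near one another, and the order is a description.

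**Figure D3:**
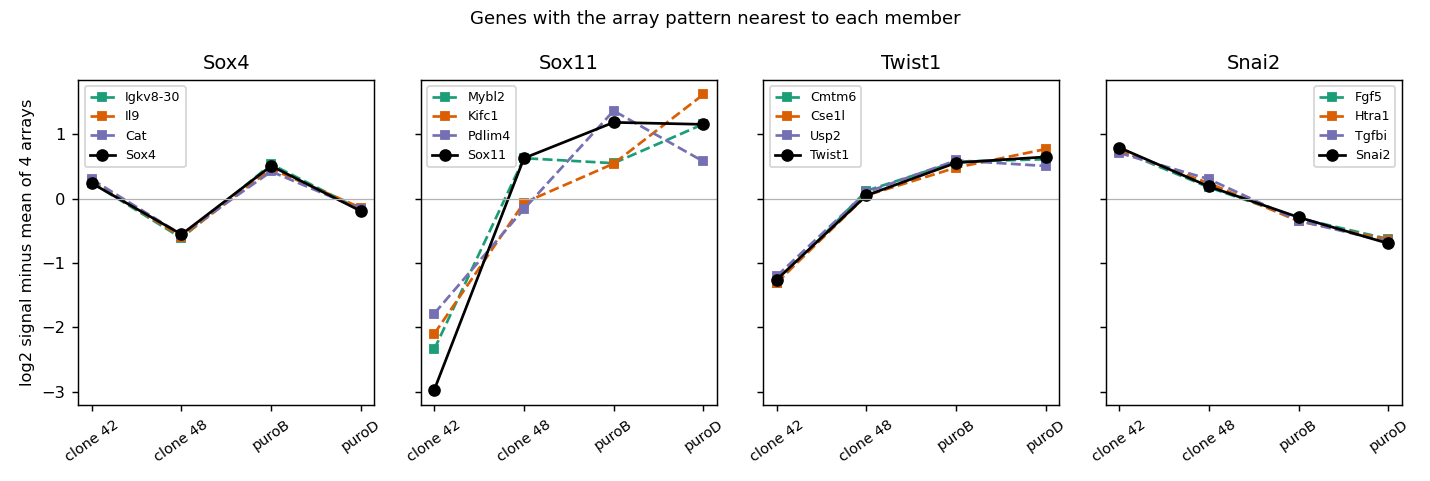
Log2 signal minus the mean of the 4 arrays for Sox4, Sox11, Twist1 and Snai2 (black) and their 3 nearest genes (colours), with lines that join arrays only to guide the eye. Snai2 and its neighbours are highest in clone 42 and lowest in puroD, and Sox11 is lowest in clone 42, as are its neighbours.

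Around the members, 10 lists of 188 genes were described, of which 158 had a probe set and 76 passed the filter on signal. The matched pairs were set up to ask what overexpressed Nurr1 changes in these cells. In limma 7 of all 6419 tested probe sets passed, or 0.109%. Of the 76 list genes 1 passed, and 11 had an unadjusted p under 0.05, as had 474 of all tested probe sets, or 7.38%. Over all tested probe sets the median log2 ratio was -0.06 for clone 42 over puroB and -0.03 for clone 48 over puroD, with 21.7% higher and 29.7% lower in both pairs.

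Among the relatives of Twist and Snail, the other mesenchymal transition factors, 5 of 20 genes were tested, 3 stood higher and 2 lower in each of the pairs, and 0 passed limma (2 at an unadjusted p under 0.05). Twist2, the closest relative of Twist1, gave 556.9 for clone 42 and 358.0 for clone 48, against 190.7 for puroB and 174.1 for puroD. The Twist2 groups did not overlap and lay in the opposite order to those of Twist1, with a mean log2 difference of 1.29 ± 0.31 (SE; limma adjusted p = 0.134); it passed with median scaling and with the filter on all 4 arrays. Zeb1, a zinc finger repressor of E-cadherin, gave 413.3 and 248.5 in clones 42 and 48, against 220.7 and 157.3 in puroB and puroD, a log2 difference of 0.78 ± 0.32 (SE; limma adjusted p = 0.563); a dimmer, untested probe set gave -0.59. Foxc2, a forkhead factor of mesenchyme, had log2 ratios of 0.68 and 0.72 (limma adjusted p = 0.841). The list medians were 0.68 and 0.66, in the same order of pairs.

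Partners of Twist1 among the helix-loop-helix proteins are the E proteins, with which it dimerises, and the Id factors, which sequester them. All 7 were tested, 4 stood lower and 1 higher in each of the pairs, and 0 passed limma (0 at an unadjusted p under 0.05). Id2 had log2 ratios of -0.67 and -0.47, Id4 -0.28 and -0.82, and Id1 -0.41 and -0.64. The 1 that stood higher was also an Id factor, Id3, with 0.30 and 0.19, named after its values were seen. Id1 differed more between the pairs than within them, with 117.7 for clone 42 and 421.5 for clone 48, against 156.3 for puroB and 658.5 for puroD, a puroB over puroD log2 ratio of -2.07. The medians of the list were -0.28 and -0.29.

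Of 16 other Sox genes 11 had a probe set and 4 were tested. Of those, 2 stood higher and 1 lower in each of the pairs, and 0 passed limma (0 at an unadjusted p under 0.05). Sox10, a factor of neural crest and oligodendrocyte lineages, gave 5118.9 for clone 42 and 7668.3 for clone 48, against 4749.1 for puroB and 3437.1 for puroD, with log2 ratios of 0.11 and 1.16. Sox10 exceeded the control level on all arrays and was highest in clone 48; its other probe set gave log2 ratios of -0.17 and 0.65. The list medians were 0.04 and 0.74. Sox13 had log2 ratios of 0.28 and 0.36, and Sox3, a relative of Sox2, -0.51 and -0.25, against -0.12 and 0.52 at a dimmer, untested probe set. Sox1, another relative of Sox2, was above the control level in clone 42 alone (90.9).

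Of 38 other neural progenitor factors 11 were tested, 3 stood higher and 3 lower in each of the pairs, and 0 passed limma (1 at an unadjusted p under 0.05). En1, a homeobox factor of the midbrain, had log2 ratios of 1.35 and 1.40 (limma adjusted p = 0.0853) and passed with median scaling and with the filter on all 4 arrays. Pax3, a factor of neural crest and dorsal neural tube, had 0.72 and 0.76 (limma adjusted p = 0.678). Hes1, a Notch effector that keeps progenitors undifferentiated, had -0.35 and -0.59 (limma adjusted p = 0.841). The list's medians were -0.33 and 0.20.

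Of 22 epithelial genes that Snail factors repress, 20 had a probe set and 5 were tested, 1 higher and 2 lower in each of the pairs, and 0 passed limma (0 at an unadjusted p under 0.05). Cdh1, the E-cadherin gene, gave 455.1 for clone 42 and 303.8 for clone 48, against 496.8 for puroB and 392.6 for puroD, a log2 difference of -0.25 ± 0.29 (SE). Its groups overlapped, unlike those of Snai2. The list medians were -0.12 and -0.18. The P-cadherin gene Cdh3 had a log2 difference of -0.15, and Tjp1, of tight junctions, 0.25. Of 10 tested mesenchymal genes 3 stood higher and 2 lower in each of the pairs, and 0 passed limma (3 higher and 1 lower at an unadjusted p under 0.05), with list medians of 0.42 and -0.04. Col3a1, a fibrillar collagen chain, had a log2 difference of 1.58 ± 0.33 (SE; limma adjusted p = 0.0853) and passed with median scaling, with the filter on all 4 arrays and without clone 48. The matrix protein gene Postn had a log2 difference of 0.80 and Cdh2, the N-cadherin gene, one of 0.30. The 3 higher genes at an unadjusted p under 0.05 were Col3a1, Postn and Col1a2, not Cdh2. Col1a2, a collagen I chain named after its values were seen, had log2 ratios of 2.36 and -0.07 (limma adjusted p = 0.498). Its other tested probe set gave 0.09 and -0.14. The lower gene was Pdgfra, a growth factor receptor of mesenchyme, with log2 ratios of -0.06 and -2.40 (limma adjusted p = 0.565), named after its values were seen. Its signal in clone 48 (29.4) was under the control level, so the size there is not known. Another Pdgfra probe set, which was untested, gave log2 ratios of 0.93 and -0.32.

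Of the cartilage genes that Sox9 drives, 4 of 11 were tested and all 4 were lower in both pairs, as were 29.7% of all tested probe sets. Of the 4, 1 passed limma and 2 had an unadjusted p under 0.05. Col11a1, a chain of collagen XI, fell: its signal was 13.4 for clone 42 and 62.6 for clone 48, against 311.2 for puroB and 282.1 for puroD, a log2 difference of -2.56 ± 0.45 (SE; limma adjusted p = 0.0487). Clone 42 was under the floor there, so the size is not known, and the call was lost without the pair as a block, with quantile normalization, without the floor, without the filter, and without clone 42, puroB or puroD. Col9a1, a collagen IX chain, had a log2 difference of -0.85 ± 0.31 (SE; limma adjusted p = 0.464) and Col9a2 had log2 ratios of -0.18 and -0.36. The list medians were -0.69 and -0.43. Without a probe set for Sox9, its own level cannot be set beside these.

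Among 7 tested targets of Sox2, Sox4 and Sox11, 1 stood higher and 2 lower in each of the pairs, and 0 passed limma with the brightest probe set (1 at an unadjusted p under 0.05). Tubb3, the neuronal beta-tubulin gene that Sox4 and Sox11 activate, gave 5688.0 for clone 42 and 4632.6 for clone 48, against 2703.2 for puroB and 2703.6 for puroD. Its groups did not overlap, and their order was the reverse of that of Sox11 (log2 difference 0.93 ± 0.31, SE; limma adjusted p = 0.371). A second Tubb3 probe set (161612_f_at) rose, with log2 ratios of 1.91 and 1.68 (limma adjusted p = 0.0487). By their suffix, both Tubb3 probe sets can also match related sequences. The second was added after its values were seen, and its call was lost without the pair as a block, with quantile normalization, without the floor, without the filter, without the intensity trend and without puroB or puroD. Shh, a ligand of neural patterning, had log2 ratios of -1.27 and -0.43. Its signal in clone 42 (67.4) lay just above the control level, which limits what can be said of the size there. The receptor Notch1 had log2 ratios of -0.44 and -0.33 at its brightest probe set but 0.67 and 0.29 at another. The medians of the list were -0.07 and -0.02. The summed signal of 7 neuron markers was 6679.8 and 5390.8 in clones 42 and 48, against 3195.1 and 3214.4 in puroB and puroD, with 3 markers above background on all arrays and Syp and Snap25 on none. Tubb3 itself made up most of this sum. Nefl and Nefm, also above background on all arrays, were likewise higher in both Nurr1-labelled clones. Nefl gave 504.7 and 365.0 in clones 42 and 48, against 98.1 and 186.3 in puroB and puroD. Nefm gave 380.5 and 349.7, against 109.8 and 129.2, in the same order. Map2, a microtubule protein of neurons, lay the other way, at 45.8 and 4.2 in clones 42 and 48, against 198.1 and 120.3 in puroB and puroD. Both Nurr1-labelled signals of Map2 were under the control level. Dcx was also lower, at 51.9 and 23.2 in clones 42 and 48, against 60.3 and 57.7 in puroB and puroD. It exceeded the control level on only 1 array. The part of neuron-like cells in these values was not tested.

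Of 12 tested signals and effectors that induce Snail and Twist, 3 stood higher and 2 lower in each of the pairs, and 0 passed limma (1 at an unadjusted p under 0.05). The ligand Tgfb3 had log2 ratios of -1.21 and -0.46 (limma adjusted p = 0.465), Tgfb1 0.37 and 0.47, and Smad7, an inhibitor of this pathway, 0.44 and 0.39. Of 11 tested co-repressors and stability regulators of Snail, 5 stood lower and 0 higher in each of the pairs, and 0 passed limma (0 at an unadjusted p under 0.05). The co-repressor Ctbp2 had a log2 difference of -0.58, Btrc, part of the ligase that degrades Snai1, -0.18, and the demethylase Kdm1a -0.15. A second Ctbp2 probe set gave -0.28, and an untested one of Btrc had log2 ratios of -1.45 and 0.71. Suz12, named after its values were seen, had log2 ratios of -0.68 and -0.07 at its brightest tested probe set. At another tested probe set of Suz12 they were -1.285 and -1.55 (limma adjusted p = 0.0853). The medians were -0.09 and 0.20 for the signals and -0.25 and -0.07 for the co-repressors.

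**Figure D4:**
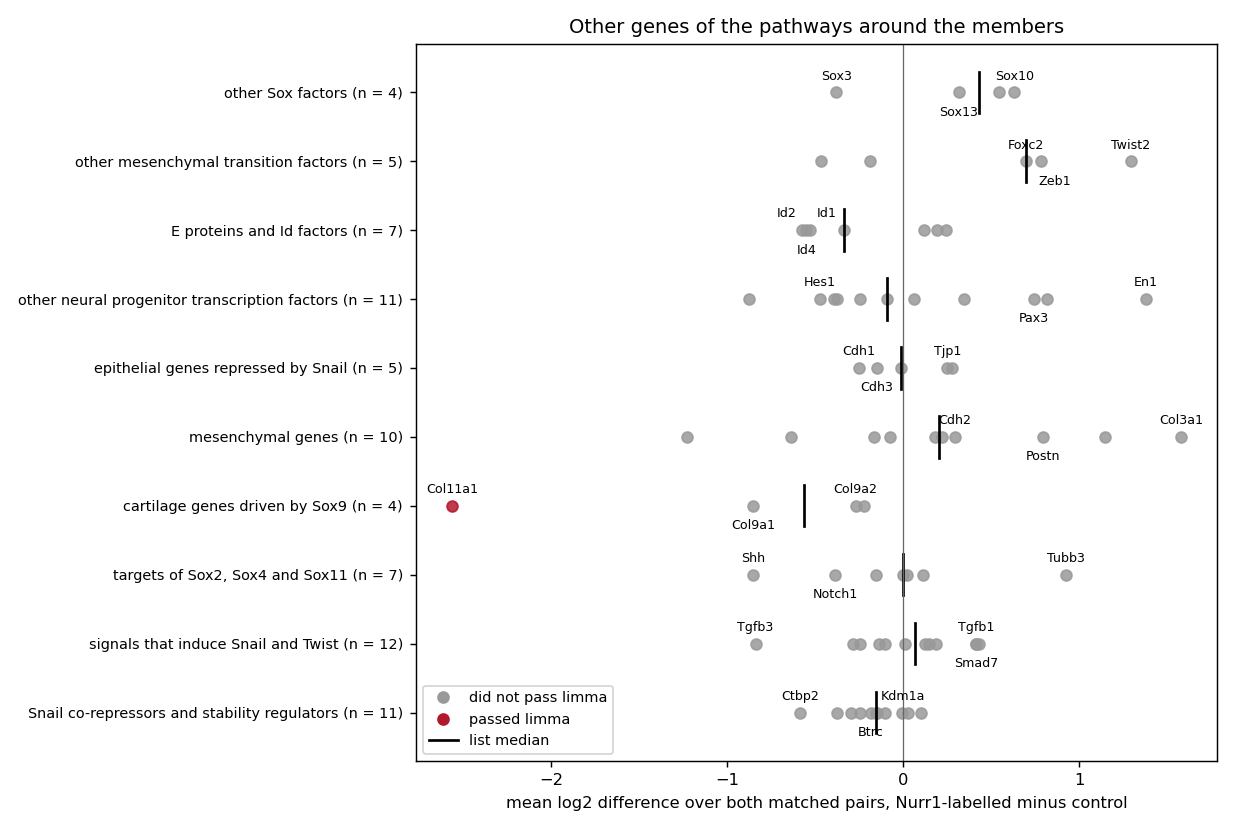
Mean log2 difference over both pairs, Nurr1-labelled minus control, for each tested gene of the 10 lists (points; red passed limma), with the list median as a black bar. Col11a1 at -2.56 is the one red point, and Twist2, Zeb1 and Foxc2 lie to the right of 0.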

How the data were processed

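Total RNA of 4 clonal lines was biotin-labelled and read on Affymetrix mouse arrays, with 1 array for each line. The authors deposited 1 linear intensity for each probe set and array. Per the submitters' processing notes these were made by MAS5, which merges the probe pairs of a probe set; its version, target and detection calls are not stated in the sources used here.

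Each array was rescaled to a trimmed mean of 500 (2% trimmed from each end), values below the 30th percentile of the whole table (40.3) were raised to it, and log2 was taken. Printed signals are as deposited. Of 12403 gene probe sets, 6419 had signals above the overall median (145.05) on at least 2 arrays and were tested. limma 3.58.1 in R 4.3.3 compared the 2 groups with the matched pair as a block, an intensity trend and Benjamini-Hochberg adjustment over all 6419 (threshold 0.05), leaving 1 residual degree of freedom per probe set. The fit was tested on simulated data. The labels give the pairing. In a check of it, arrays of a pair were correlated by how they deviated from their group's mean (r = 0.19 over probe sets, which are not independent replicates). The number of arrays limits the precision.

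Genes were named from the platform annotation, checked by Entrez identifier against RefSeq (GRCm38.p6). Of the gene probe sets, 10814 had 1 symbol. A list gene was represented by the brightest of its tested probe sets. From each list up to 3 genes were named: those that passed, then those with the largest smaller-of-both-pairs change in 1 direction. The 3 nearest patterns to a member were those of the smallest Euclidean distance between centred log2 signals over the 4 arrays. Members and lists were chosen with earlier results of these data known, so no p-value is given for a member. Promoter windows came from RefSeq (GRCm38.p6), cut to the 250 bases before the annotated start. The alternatives tried were no block, other scalings, floors and filters, no trend, and leaving out each array.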

Additional observations from a re-analysis of the deposited data

Results flagged for a closer look

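Snai1 (103830_at) was flagged because the matched pairs went in opposite directions, with a log2 ratio of -0.88 for clone 42 over puroB and 0.49 for clone 48 over puroD. The difference between the pairs was not tested, since each clone has 1 array. The signal in clone 42 lay under the control level of its array.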

How the results depend on the processing

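The count of 7 probe sets passing limma (474 at an unadjusted p under 0.05) became 0 without the replicate block, which is the matched pair (287 at that p), with quantile normalization (375), without a floor (473) and without a filter (560), and 51 with median scaling and 49 with a filter on all 4 arrays. The count of list genes passing, 1 in the fit with the block, was 0 in the first 4 of these settings and 4 and 3 in the others, where Twist2, En1 and Col3a1 gained the call. Median scaling moved the median difference of all tested probe sets to 0.13, against -0.04 with the trimmed mean. Leaving out 1 array at a time gave 0 to 51 calls over all probe sets (17 without clone 42, 51 without clone 48, 0 without puroB, 2 without puroD) and 0 to 3 among list genes. These fits had no block, because a lone array of a pair carries no difference, and the lone clone is assumed to vary like the other group. Over them the log2 difference ran from -0.71 to 0.081 for Sox4 (101430_at), -4.14 to -0.54 for Sox11, -1.86 to -0.55 for Twist1, -0.95 to 0.55 for Snai1 and 0.68 to 1.29 for Snai2. With median scaling Sox4 was -0.15 and Snai2 1.15, and the other Sox4 probe set gave 0.34. Without single arrays directions reversed for Sox3 (0.065 without clone 48 and 0.19 without puroB, range -0.95 to 0.19), Id1 (0.39 without clone 42 and 0.51 without puroD, range -1.56 to 0.51), and, without clone 48, Cdh1 (0.043, range -0.54 to 0.043) and Col9a2 (0.058, range -0.60 to 0.058). Cdh3 reversed with median scaling (0.019), and Kdm1a with quantile normalization (0.014) and median scaling (0.024). The causes were not tested. Signals near the control level, those of Snai1, Twist1 and Sox11 in clone 42, limit how large their differences can be said to be.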
